A study of Mus musculus with 6 samples.

Results

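The genes described here are 10 members of the annexin and S100 machinery of plasma membrane repair: the annexin genes Anxa1, Anxa2, Anxa4, Anxa5, Anxa6, Anxa7 and Anxa11, the S100 genes S100a10 and S100a11, and the scaffold gene Ahnak. They were taken by symbol from a table of 27179 gene rows, and all 10 were among the 13769 genes with enough counts to test. RNA came from primary satellite cells of the hindlimb of wild-type (WT) C57BL/6 mice, called ageing in the labels with no age given, grown with serum and bFGF in both groups. One group (3 libraries) had received recombinant human MG53 protein (rhMG53, labelled hMG53) for 72 h, and the other (3 libraries) had received BSA (bovine serum albumin), the vehicle, for as long. All 6 libraries carry the batch label Day 3. The series text speaks of biological replicates, although the labels name no animal or culture for any of them, so each test sets a difference against a spread that may be partly technical.

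Annexins are proteins that bind acidic membrane lipids when calcium is present. When the plasma membrane tears, calcium flows in, and annexins gather at the wound edge, cross-link vesicles and lipids, and help to draw the edge closed. Several annexins act as pairs with small S100 proteins: a dimer of S100A10 joins annexin A2 molecules into a complex that bridges membranes, and a dimer of S100A11 does the same with annexin A1. AHNAK is a giant scaffold protein that is carried to the plasma membrane by the annexin A2 and S100A10 complex and that associates with dysferlin in muscle. MG53, the protein added here, is itself a muscle repair protein, encoded in the mouse by Trim72, that brings vesicles to sites of injury.

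The libraries held 17374151 to 22738745 gene counts. Markers of differentiating muscle were high in both groups, with the summed level of 12 such genes at 61370 to 64280 CPM (counts scaled to a common library size with TMM factors) with BSA and 56285 to 64535 CPM with rhMG53. The 8 satellite cell markers summed to 2275 to 2353 CPM with BSA and 2095 to 2252 CPM with rhMG53. Itga7 (1731 CPM) and Cdh15 (405.9 CPM) made up most of that sum, while Pax7 was at 9.24 CPM and Calcr, which marks quiescent satellite cells, at 0.0526 CPM. Genes of both muscle lists were thus expressed in the cultures. Annexins are also abundant in other cell types. Of 10 macrophage and leukocyte markers, summing to 6.95 to 8.31 CPM with BSA and 7.48 to 11.7 CPM with rhMG53, Itgam was the highest at 4.85 CPM and the defining marker Ptprc stood at 0.0603 CPM. The 10 fibro-adipogenic and fibroblast markers summed to 397.6 to 442.4 CPM with BSA and 391.6 to 442.6 CPM with rhMG53, most of it from Gsn (331.0 CPM), which muscle cells also express, with Pdgfra at 21.9 CPM and Dcn at 17.8 CPM. The 8 endothelial markers summed to 9.41 to 10.1 CPM with BSA and 7.32 to 9.39 CPM with rhMG53, with Vwf highest at 4.68 CPM. The 7 pericyte and smooth muscle markers summed to 255.6 to 307.9 CPM and 242.9 to 297.2 CPM, with Abcc9 highest at 127.5 CPM. Among them Pdgfrb was at 83.7 CPM, Cspg4 at 34.1 CPM and Notch3 at 32.5 CPM. Myh11 (0.442 CPM) and Rgs5 (0.0888 CPM) were low, and Kcnj8 was at 0 in every library. The 5 Schwann and glial markers summed to at most 4.12 CPM in any library, and the 4 epithelial markers to at most 0.404 CPM, with Cdh1 highest at 0.268 CPM and Krt14 at 0 in every library. No marker gene of these lists passed the test, and the part of other cell types in the values below was not tested. In RNA from whole cultures, fewer cells of a type and less RNA per cell cannot be told apart.

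All 10 genes were expressed, and 9 of them stood above at least 91.3% of the tested genes in level per unit of transcript length. Levels between genes were compared as TPM, that is, counts divided by the length of the transcript and scaled to the same total in each library. Anxa6, which encodes an annexin with a doubled core that forms part of the repair cap in muscle, had the highest level at 545.2 ± 9.29 TPM with BSA and 552.9 ± 24.3 TPM with rhMG53 (SD, n = 3 each, as for all values below). S100a11 followed at 499.3 ± 6.41 and 541.3 ± 8.46 TPM, and Anxa2 at 443.4 ± 2.91 and 494.3 ± 7.52 TPM. These 3 genes formed a top group, well clear of the rest. Anxa11, whose protein has a long disordered N-terminal region, averaged 215.2 TPM over the 6 libraries, Anxa1 209.6 TPM, Ahnak 163.4 TPM, S100a10 144.7 TPM, Anxa7 130.6 TPM, Anxa5 120.0 TPM and Anxa4 61.8 TPM. Neighbours in this order overlapped over the 6 libraries except at 2 steps, between Anxa2 and Anxa11 and between Anxa5 and Anxa4. Anxa4, at the bottom of the order, still exceeded 82.8% of the 12953 tested genes with a known length. With coding length in place of transcript length the order changed in part: S100a11 came first (467.5 TPM), ahead of Anxa6 (349.8 TPM) and Anxa2 (344.8 TPM), S100a10 moved to rank 5 (176.0 TPM) and Ahnak to rank 9 (90.0 TPM).

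**Figure D1:**
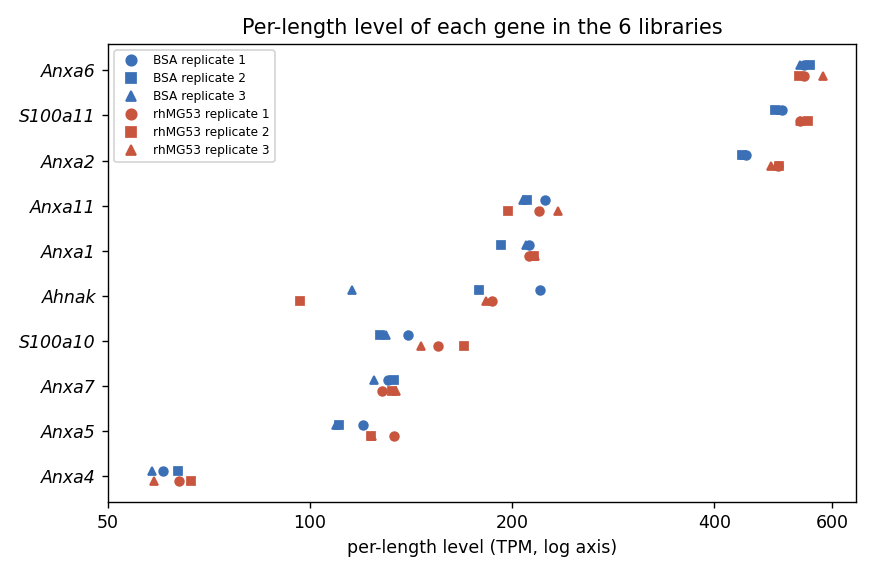
Per-length level (TPM, log axis) of each of the 10 genes in each library, ordered by the mean over the 6 libraries, with BSA in blue and rhMG53 in red and a symbol for each replicate number. Anxa6, S100a11 and Anxa2 lie between 440.6 and 580.5 TPM, apart from the other genes, and Ahnak has the widest spread, from 96.7 to 219.9 TPM.

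Some of these levels depend on how reads were shared among similar sequences, which the sources used here do not state. For S100a11, 41.1% of the 50-base stretches of its transcript also occur in transcripts of other annotated genes (Gm12854, Gm29240 and Gm7665). For Anxa11 the figure is 28.9%, shared with Gm2260, Gm2274 and the antisense gene Anxa11os, and for Anxa4 it is 1.46%, shared with the opposite-strand gene Gm44036. The transcripts of the other 7 genes shared no such stretch with any other gene, and no gene of the 10 shared one with another of the 10. The coding sequences of the annexins were 58.1% to 73.1% identical at the aligned bases of pairwise alignments, and those of S100a10 and S100a11 59.1%. In exons, Anxa2 overlaps the opposite-strand gene Gm16144 by 98 bases, Anxa4 overlaps Gm44036 by 75 bases and Anxa11 overlaps Anxa11os by 113 bases, and without a stated strand setting those reads cannot be told apart. The values of S100a11 and Anxa11 are uncertain to that extent.

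Anxa2 and S100a10, the genes of the bridging complex, were both higher in every rhMG53 library than in any BSA library, but neither passed the test over all genes. The start of the Anxa2 coding sequence is shown because it encodes the N-terminal helix that docks into the S100A10 dimer, and the whole S100a10 coding sequence because its protein is the docking partner and differs from other S100 proteins in having lost the ability to bind calcium. Both are GENCODE M21 sequences of GRCm38, written 5′ to 3′ in the sense direction, with the start codon in capitals.
Anxa2, first 48 of 1017 coding bases: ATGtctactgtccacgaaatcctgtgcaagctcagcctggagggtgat
S100a10, all 291 coding bases: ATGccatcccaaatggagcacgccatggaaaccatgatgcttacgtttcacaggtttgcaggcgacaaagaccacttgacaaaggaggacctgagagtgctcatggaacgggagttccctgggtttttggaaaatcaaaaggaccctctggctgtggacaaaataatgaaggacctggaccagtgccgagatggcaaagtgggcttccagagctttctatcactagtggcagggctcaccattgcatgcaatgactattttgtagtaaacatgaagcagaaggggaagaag
Anxa2 (gene ID 12306, GRCm38 chromosome 9, 69453683 to 69491792, plus strand, protein-coding) stood at 285.8, 286.7 and 296.8 CPM in the BSA libraries, in the order of their replicate numbers, and at 319.9, 332.6 and 310.2 CPM in the rhMG53 libraries. The lowest rhMG53 library lay above the highest BSA library, and each value rested on 5074 to 6465 reads. Its log2 fold change was 0.15 (SE 0.057, 95% interval 0.02 to 0.27), a 1.11-fold difference, with an adjusted p of 0.946 in edgeR's quasi-likelihood test. S100a10 (gene ID 20194, chromosome 3, 93555117 to 93564645, plus strand, protein-coding) stood at 42.4, 39.2 and 41.1 CPM with BSA and at 47.2, 53.6 and 44.2 CPM with rhMG53. Here too the groups did not overlap, with rhMG53 replicate 2 the highest and BSA replicate 2 the lowest library. The log2 fold change was 0.24 (SE 0.079, interval 0.07 to 0.41), a 1.18-fold difference and the largest of the 10 genes, with an adjusted p of 0.935 in edgeR's test. Without rhMG53 replicate 2 the log2 fold change was 0.16. The level of S100a10 relative to Anxa2, per length, was 0.313, 0.289 and 0.293 in the BSA libraries and 0.311, 0.340 and 0.301 in the rhMG53 libraries. The groups overlapped in this ratio, whose means were 0.298 ± 0.0133 and 0.318 ± 0.0203.

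Anxa1 and S100a11, which form the other annexin and S100 pair, differed less between the groups. Anxa1 (gene ID 16952, chromosome 19, 20373434 to 20390671, minus strand, protein-coding), also known for its anti-inflammatory action as a secreted protein, had 157.0, 144.9 and 162.2 CPM with BSA and, with rhMG53, 157.4, 166.2 and 160.0 CPM. The groups overlapped, and the log2 fold change was 0.06 (SE 0.062, interval -0.08 to 0.19, adjusted p = 0.983 in edgeR), from 0.015 without BSA replicate 2 to 0.094 without BSA replicate 3. S100a11 (gene ID 20195, chromosome 3, 93520496 to 93526288, plus strand, protein-coding) had 114.0, 113.1 and 118.6 CPM with BSA and, with rhMG53, 121.6, 129.7 and 121.0 CPM. Its groups did not overlap, with a gap between BSA replicate 3 and rhMG53 replicate 3 that was smaller than the SD of either group. The log2 fold change was 0.11 (SE 0.058, interval -0.02 to 0.24, adjusted p = 0.965 in edgeR). Per length, S100a11 was the more abundant partner, at 2.44 ± 0.0978 times Anxa1 with BSA and 2.52 ± 0.0401 times with rhMG53, whereas S100a10 was the less abundant partner of Anxa2. Annexin A1 acts on leukocytes through receptors of the formyl peptide receptor family. The 4 genes examined of that family were all but silent, with Fpr1 at a total of 1 read over all libraries and Fpr2, Fpr3 and Fpr-rs4 at 0.

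Anxa5 was the third gene with an interval that lay above 0, and the interval of Anxa4 included 0. Anxa5 (gene ID 11747, chromosome 3, 36448923 to 36475887, minus strand, protein-coding) encodes the annexin that assembles into flat lattices on torn membrane and that is widely used as a probe for exposed phosphatidylserine. It was at 91.8, 85.9 and 87.5 CPM with BSA and at 102.4, 98.2 and 94.7 CPM with rhMG53. No library of one group reached the range of the other, and the log2 fold change was 0.15 (SE 0.060, interval 0.02 to 0.29, adjusted p = 0.946 in edgeR). Anxa4 (gene ID 11746, chromosome 6, 86736840 to 86793634, minus strand, protein-coding), whose protein bends membranes at wound edges, was at 54.3, 58.0 and 54.6 CPM with BSA and at 57.5, 62.1 and 52.5 CPM with rhMG53. The lowest and the highest library were both rhMG53 libraries, and the log2 fold change was 0.04 (SE 0.073, interval -0.12 to 0.21, adjusted p = 0.991 in edgeR).

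Anxa6, Anxa7 and Anxa11 were at nearly the same level in both groups, and the intervals of their fold differences lay between 0.914 and 1.11. Anxa6 (gene ID 11749, chromosome 11, 54978953 to 55033471, minus strand, protein-coding) had 598.9, 621.2 and 617.9 CPM with BSA and, with rhMG53, 600.3, 612.9 and 637.8 CPM, the smallest spread of the 10 genes, with the highest library 1.06 times the lowest. Its log2 fold change was 0.01 (SE 0.058, interval -0.12 to 0.14, adjusted p = 0.997 in edgeR). Anxa7 (gene ID 11750, chromosome 14, 20455261 to 20480133, minus strand, protein-coding), whose protein binds the calcium sensors ALG-2 and sorcin, had 164.8, 171.2 and 164.4 CPM with BSA and, with rhMG53, 161.7, 174.1 and 169.2 CPM. The rhMG53 libraries of Anxa7 spanned the whole BSA range, with a log2 fold change of 0.01 (SE 0.057, interval -0.11 to 0.14, adjusted p = 0.996 in edgeR). Anxa11 (gene ID 11744, chromosome 14, 25842127 to 25886804, plus strand, protein-coding), also a partner of ALG-2, had 236.8, 226.3 and 229.9 CPM with BSA and, with rhMG53, 232.7, 217.6 and 247.0 CPM. Its lowest and highest values were again both in rhMG53 libraries, and the log2 fold change was 0.01 (SE 0.062, interval -0.13 to 0.15, adjusted p = 0.997 in edgeR).

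**Figure D2:**
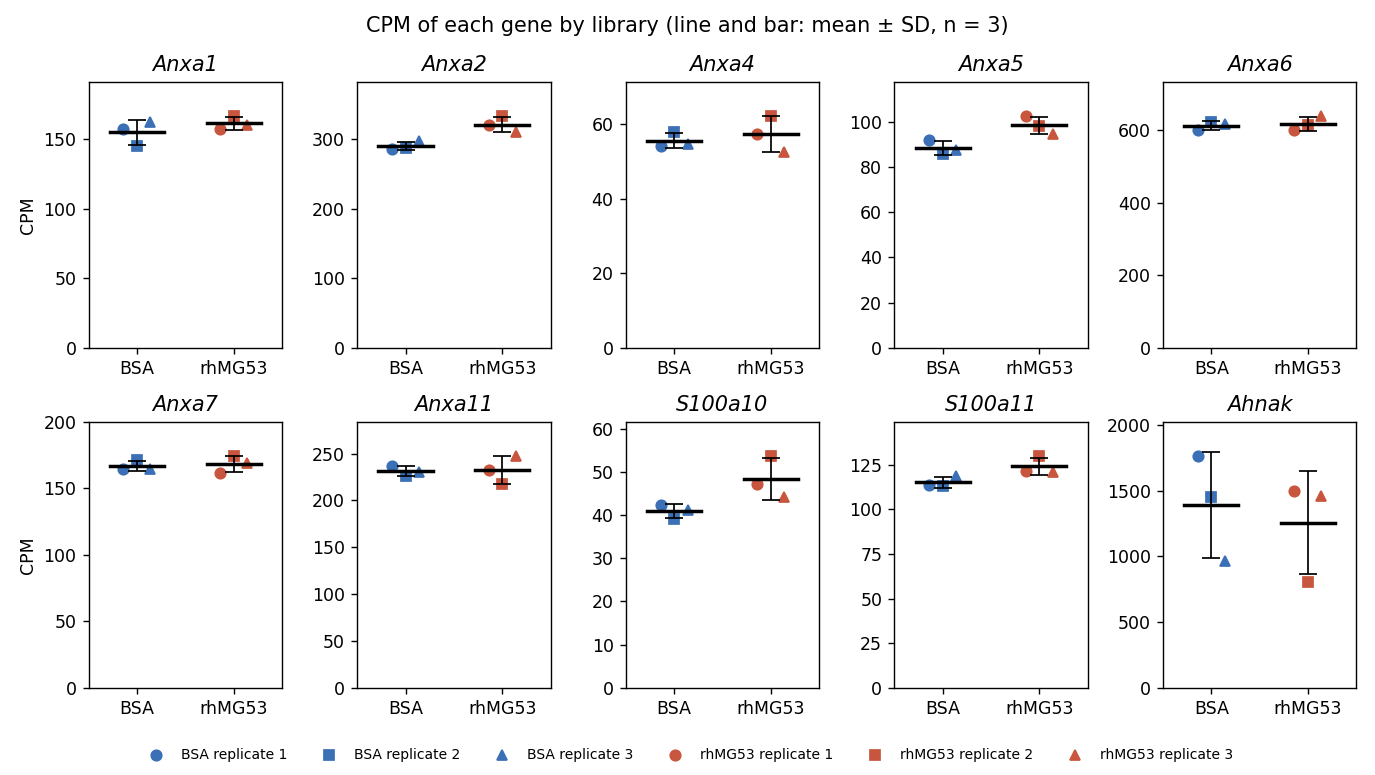
CPM of each of the 10 genes in each library, one panel per gene with its axis from 0, with points for libraries and black lines for the group mean ± SD (n = 3). The rhMG53 points lie above all BSA points for Anxa2, Anxa5, S100a10 and S100a11, and the Ahnak points are spread from 806.2 to 1761 CPM with both groups over the same range.

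Ahnak varied more between libraries of the same group than between the groups. Ahnak (gene ID 66395, chromosome 19, 8989284 to 9076935, plus strand, protein-coding) was at 1761, 1451 and 965.4 CPM in the BSA libraries and at 1500, 806.2 and 1463 CPM in the rhMG53 libraries. One library of each group was low, BSA replicate 3 and rhMG53 replicate 2, and the highest library was 2.18 times the lowest. The coefficient of variation was 28.8% with BSA and 31.1% with rhMG53, against 0.627% from counting alone, since each value rested on 14795 to 39845 reads. For the other 9 genes the coefficient of variation within a group was 1.96% to 9.89%. The log2 fold change of Ahnak was -0.15 with an interval of -0.67 to 0.37 (SE 0.236, adjusted p = 0.991 in edgeR), so a difference of the size of that of S100a10 was not detectable in Ahnak. Leaving out single libraries turned its sign, to 0.06 without BSA replicate 1 and to 0.09 without rhMG53 replicate 2, and moved it to -0.36 without BSA replicate 3, -0.30 without rhMG53 replicate 1 and -0.27 without rhMG53 replicate 3.

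The same 2 libraries were low for long transcripts in general. Ahnak has a transcript of 18100 bases, by far the longest of the 10, and S100a10 and S100a11 have the shortest, at 685 and 511 bases. Over 571 genes with transcripts of 8 kb and over, the median deviation of log2 CPM from the mean of the 6 libraries was 0.16, 0.07 and -0.16 in the BSA libraries, by replicate number, and 0.12, -0.26 and 0.08 in the rhMG53 libraries. Ahnak deviated in the same direction in each library, by 0.46, 0.18 and -0.41 and by 0.23, -0.67 and 0.19. For 531 genes under 1 kb the median deviation was largest in rhMG53 replicate 2, at 0.13, the library in which S100a10 (0.27) and S100a11 (0.12) were highest. It was also largest there for 1901 genes of 1 to 2 kb, at 0.09. Of the genes in that class, Anxa2 (0.13) and Anxa1 (0.07) were highest in the same library, and Anxa5 (0.14) in rhMG53 replicate 1. The differences were therefore also computed with each library's trend with transcript length removed, an alternative chosen after these values were seen. The log2 fold change was then 0.19 for S100a10, 0.12 for Anxa2, 0.13 for Anxa5, 0.05 for S100a11 and -0.08 for Ahnak, with adjusted p of 0.597 to 0.907 in edgeR. The value of S100a11 moved by more than 1.5 times, and so did that of Ahnak. Without BSA replicate 3 and rhMG53 replicate 2 the values were 0.16 for S100a10, 0.14 for Anxa2, 0.15 for Anxa5, 0.10 for S100a11 and -0.12 for Ahnak.

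**Figure D3:**
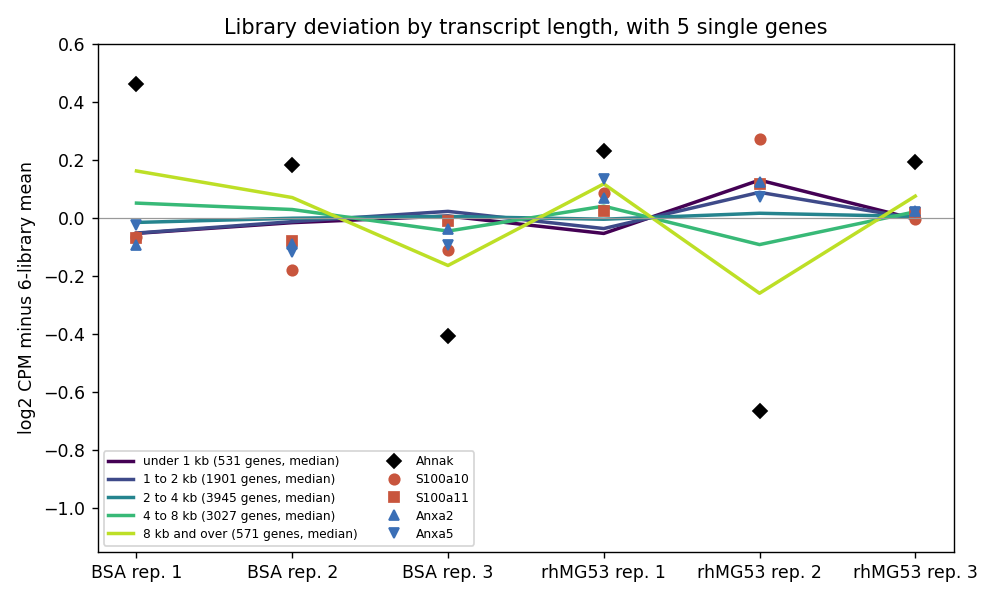
Deviation of log2 CPM from the mean of the 6 libraries, by library, as the median over genes in 5 classes of transcript length (lines) and for 5 single genes (symbols). BSA replicate 3 and rhMG53 replicate 2 are lowest for transcripts of 8 kb and over (-0.16 and -0.26) and for Ahnak (-0.41 and -0.67), and rhMG53 replicate 2 is highest for transcripts under 1 kb (0.13).

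Across the 10 genes, 0 passed an adjusted p of 0.05 in edgeR, against 3 of 13769 genes tested (0.0218%). DESeq2 and limma voom also called 0 of the 10. At an unadjusted p under 0.05 in edgeR there were 3 of the 10 (S100a10, Anxa2 and Anxa5), against 5.2% of all genes. The groups did not overlap, with rhMG53 higher, in 4 of the 10 (those 3 and S100a11), against 5.94% of all genes, and in 0 of the 10 with rhMG53 lower, against 4.83%. Of the 10 log2 fold changes 9 were above 0, against 50.5% of all genes, with a median of 0.05 against 0.0014 over all genes, but the genes share libraries and transcript features and are not independent. That count was 7 with the length trend removed, where Anxa6, Anxa11 and Ahnak were below 0. Summed over the 10 genes, the per-length level was 2601, 2503 and 2436 TPM in the BSA libraries and 2677, 2586 and 2699 TPM in the rhMG53 libraries. The ranges of this sum overlapped, and those of the 7 annexins alone did not, at 1737, 1706 and 1689 TPM with BSA and 1798, 1768 and 1833 TPM with rhMG53. Of the 7, Anxa2 had the largest difference, with means of 443.4 TPM with BSA and 494.3 TPM with rhMG53. Anxa7 had means of 129.6 and 131.6 TPM. The sum of the 7 leaves out the variable Ahnak and restates genes counted above. No share over all genes was computed for such sums.

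**Figure D4:**
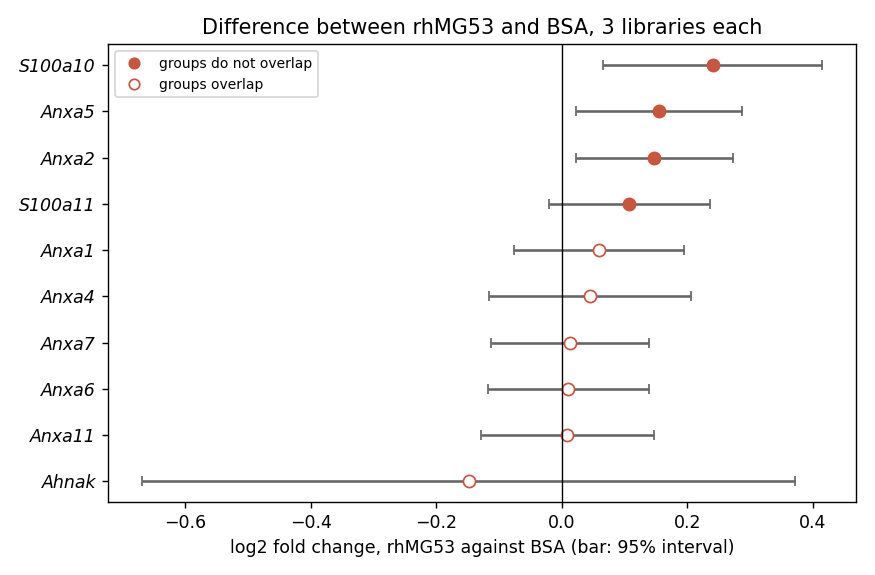
Log2 fold change of rhMG53 against BSA for each of the 10 genes (points) with its 95% interval (bars), where filled points mark genes whose groups do not overlap. The intervals of S100a10, Anxa5 and Anxa2 lie above 0, that of Ahnak runs from -0.67 to 0.37, and no gene passed the adjusted test.

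By the root mean square difference of centred log2 CPM over the 6 libraries, the genes whose pattern was most like that of Anxa2 were Rcn2, which encodes a calcium-binding protein of the endoplasmic reticulum (0.015), Nudt2 (0.022) and the mitochondrial enzyme gene Echs1 (0.023), of 10197 genes ranked. S100a11 came next, at rank 4 (0.024). Anxa5 was at rank 272 (0.051), Anxa1 at rank 593 (0.061) and S100a10, the binding partner of Anxa2, at rank 1503 (0.078). Ahnak was at rank 10162 (0.447), near the end of the list. A small value is also reached by genes that vary little, so the order describes these 6 libraries and no more.

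Relatives of these genes lay in both directions. Of the 5 other annexin genes, 2 were high enough to test, Anxa3 at 113.8 CPM (log2 fold change -0.05, SE 0.060) and Anxa8 at 13.7 CPM (0.0077, SE 0.101), and Anxa9, Anxa10 and Anxa13 were under 0.5 CPM on average. Of 14 other S100 genes 6 were tested, 1 higher and 5 lower with rhMG53, with a median log2 fold change of -0.02. The highest in CPM, which is not corrected for length, was S100a6, a partner of several annexins, at 219.1 CPM (0.04, SE 0.071). S100a4 lay close to it, at 217.9 CPM. S100a1, a calcium sensor of striated muscle, was at 21.1 CPM (-0.04, SE 0.087). S100a3, named after its values were seen, had the lowest value of the list, -0.94, at 0.641 CPM. The leukocyte gene S100a9 had 0 reads in every library. None of these genes passed in edgeR, where 0 of the 2 annexins and 1 of the 6 S100 genes had an unadjusted p under 0.05.

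No gene for the partners that act with annexins at a wound passed the test. Of 8 genes for ALG-2, sorcin, the calpains and the related proteins of Pef1 and Gca, 5 were higher and 3 lower (median 0.06). Calpains are proteases that act at torn membranes. Capn3, the muscle calpain gene, averaged 346.7 ± 9.31 CPM in the BSA libraries and 313.4 ± 19.9 CPM in the rhMG53 libraries, with groups that did not overlap (-0.15, SE 0.064, adjusted p = 0.950 in edgeR). Its log2 fold change was -0.098 without rhMG53 replicate 2 and -0.15 with the length trend removed. Without BSA replicate 3 and rhMG53 replicate 2 it was -0.084. Capn1 was at 128.9 ± 3.66 and 138.3 ± 2.16 CPM (0.10, SE 0.055, adjusted p = 0.965 in edgeR), in the opposite direction and also without overlap. Of 16 genes of the vesicle patch and ESCRT arm of repair, 12 were higher and 4 lower (median 0.06), where 50.5% of all genes were higher. Trim72, the cells' own MG53 gene, was the highest in CPM, at 1380 ± 74.5 and 1411 ± 80.8 CPM (0.03, SE 0.071). Its counts do not measure the added human protein. The caveolin gene Cav1 (0.16, SE 0.080) and the endocytic recycling gene Ehd1 (0.12, SE 0.059) had the smallest p of that list. The groups did not overlap, with rhMG53 higher, in 3 of the 16 (Cav1, Ehd1 and Vps4b), against 5.94% of all genes. These genes share libraries and are not independent. None of the 8 or the 16 genes passed in edgeR, with 1 and 0 at an unadjusted p under 0.05.

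At the cell surface the annexin A2 and S100A10 complex also binds plasminogen and its activator. Of 8 genes of that system 4 were higher and 4 lower (median 0.02). The plasminogen receptor gene Plgrkt averaged 13.8 CPM over the 6 libraries, with groups that did not overlap (0.17, SE 0.086, adjusted p = 0.965 in edgeR). Of the relatives and partners of Ahnak 5 of 6 were tested, 2 higher and 3 lower (median -0.0035). Ahnak2 was at 143.0 ± 8.08 and 144.3 ± 13.3 CPM (0.01, SE 0.076) and the dysferlin gene Dysf at 264.7 ± 12.2 and 248.7 ± 23.9 CPM (-0.09, SE 0.076). The Dysf value was -0.014 without rhMG53 replicate 2 and -0.14 without rhMG53 replicate 1. No gene of these 2 lists passed in edgeR, with 1 and 0 at an unadjusted p under 0.05.

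The promoters of 3 of the 4 genes whose groups did not overlap are shown, since their differences lay in the same direction. They are the 250 bases before the start site in RefSeq (GRCm38.p6), written 5′ to 3′ in the direction of transcription, with matches to TGAGTCA, the AP-1 site, in capitals on either strand. The table held 10 promoters of 8 of the 10 genes, and none for Anxa6 and S100a10.
Anxa2, chr9:69453433-69453682, plus strand: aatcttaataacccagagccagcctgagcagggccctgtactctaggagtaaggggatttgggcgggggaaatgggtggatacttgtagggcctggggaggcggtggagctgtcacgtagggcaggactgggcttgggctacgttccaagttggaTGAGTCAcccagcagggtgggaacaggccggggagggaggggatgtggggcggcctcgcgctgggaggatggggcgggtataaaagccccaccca
S100a11, chr3:93520246-93520495, plus strand: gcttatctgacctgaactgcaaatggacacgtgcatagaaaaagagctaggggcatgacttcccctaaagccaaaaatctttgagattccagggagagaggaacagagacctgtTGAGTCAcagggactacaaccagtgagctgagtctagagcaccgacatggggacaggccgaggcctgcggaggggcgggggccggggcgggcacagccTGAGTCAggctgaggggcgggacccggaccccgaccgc
Anxa5, chr3:36475888-36476137, minus strand: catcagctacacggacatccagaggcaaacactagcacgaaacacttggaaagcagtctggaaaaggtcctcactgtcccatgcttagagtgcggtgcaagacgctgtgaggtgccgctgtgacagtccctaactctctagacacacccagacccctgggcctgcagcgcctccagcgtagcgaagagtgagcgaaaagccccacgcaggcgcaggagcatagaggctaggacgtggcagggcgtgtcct
TGAGTCA occurred 1 time in the Anxa2 promoter, at -95 from the start site, and 2 times in that of S100a11, at -136 and -38. It occurred in none of the other 8 promoters of these genes, Anxa5 included, and in 4.5% of all 32851 promoters. The GC box GGGCGG, on either strand, was in the promoters of Anxa2, S100a11, Anxa7, Anxa11 and Ahnak, against 32.7% of all. TATAAA was in those of Anxa2, at -17, and Anxa1, at -32, against 12.4% of all. TGACNNNGC, the core of the antioxidant response element, was in 1 promoter of Anxa4, at -180, against 10.2% of all. No match overlapped one to another motif. The 2 windows of Anxa7 overlap, and 1 GC box lies in both, at -8 from one start site and -200 from the other. These matches describe the letters of the windows and say nothing of binding.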

How the data were processed

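The table the authors deposited holds raw counts (whole numbers) for each NCBI gene ID in 6 libraries. The submitters' processing notes name the build mm10 and, with no version or role, STAR, featureCounts and edgeR. For the annotation, the strand setting and the treatment of multi-mapping reads, nothing is given in the sources used here. RNA was poly(A)-selected, per the labels' protocols.

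Gene IDs were named through RefSeq (GRCm38.p6, the assembly of mm10; 25275 IDs) and GENCODE M21 (18 more), leaving 1886 unnamed. Genes were kept with filterByExpr (minimum count 10, minimum total 15), scaled with TMM and tested with edgeR 4.0.16 (R 4.3.3), quasi-likelihood F test, 2-sided, treatment as the only term, with Benjamini-Hochberg adjustment over all 13769 genes. SE is the log2 fold change divided by the square root of F. TPM used the longest GENCODE transcript paired with a RefSeq mRNA where there was one. The fit was also run on simulated counts, with changes larger than those of the 10 genes and no trend with transcript length. That run says nothing of differences as small as theirs. No pair of libraries agreed within counting noise.

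The 10 genes and the lists of related genes and markers were chosen with earlier results of these data known. Named genes are the 10, and of each list of related genes the 2 of smallest p and the 1 of highest level among those with at least 5 CPM, plus the 3 most like Anxa2, and for markers those at 0 and the highest. Other genes are named as examples. A few genes covered by this rule are left out of the text. Alternatives used RLE factors, library size alone, no filter, at least 5 CPM, DESeq2 1.42.0, limma 3.58.1 voom, the replicate number as a block, and leaving out each library. Removing a loess length trend (span 0.5, for 94.1% of tested genes) and leaving out 2 libraries were added after the data were seen.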

Additional observations from a re-analysis of the deposited data

How the results depend on the processing

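None of the 10 genes passed under any alternative run, and S100a10, Anxa2, Anxa5, S100a11 and Anxa1 were above 0 in all 15 of them. Over those alternatives the log2 fold change was 0.16 (without rhMG53 replicate 2) to 0.30 for S100a10, 0.12 to 0.17 for Anxa2, 0.12 to 0.18 for Anxa5, 0.05 to 0.13 for S100a11 and 0.015 to 0.094 for Anxa1. When 1 library was left out, Dysf ranged from -0.14 to -0.014 and Anxa3 from -0.091 to -0.028. Over all genes edgeR called 3, and 6 without the low-count filter, 5 in DESeq2, 0 with the replicate block, 0 to 4 when 1 library was left out (0 without BSA replicate 2), and 10 without BSA replicate 3 and rhMG53 replicate 2. With each library left out in turn, 7 to 9 of the 10 genes were above 0, and the sign turned at some library for Ahnak (-0.36 to 0.089), Anxa4 (-0.016 to 0.10), Anxa6 (-0.017 to 0.029), Anxa7 (-0.012 to 0.041), Anxa11 (-0.039 to 0.054), Anxa8 (-0.047 to 0.099), S100a6 (-0.0031 to 0.11), S100a1 (-0.086 to 0.038), Trim72 (-0.0049 to 0.079) and Ahnak2 (-0.031 to 0.088). With the length trend removed it turned for Anxa6 (-0.0020), Anxa11 (-0.0043), Anxa8 (-0.017) and S100a6 (-0.0081), without BSA replicate 3 and rhMG53 replicate 2 for Anxa4 (-0.027), Anxa7 (-0.023) and Anxa8 (-0.048), and with limma voom for Anxa8 (-0.0015). The cause was not tested. Correlations of deviations between libraries of equal replicate number were 0.190, -0.127 and -0.150 for numbers 1 to 3. The replicate block changed no call among the 10 genes. Across unlike numbers the correlation was 0.302 for BSA replicate 3 with rhMG53 replicate 2, the libraries that were low for long transcripts. It was 0.108 for BSA replicate 2 with rhMG53 replicate 3. The length trend was not removed for these correlations, so they cannot decide whether numbers pair the libraries. A shared origin of libraries, under equal or unlike numbers, was not tested. With 3 libraries a group, the median half-width of a 95% interval was 0.22 on the log2 scale, which limits what could be detected.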
